A study of Mus musculus with 3 samples.

Results

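The 10 genes described here belong to the ATF4 branch of the integrated stress response: Atf4, Atf5, Ddit3, Trib3, Chac1, Sesn2, Asns, Phgdh, Psat1 and Slc7a11. They were taken by symbol from the count tables, where each matched 1 of 27999 entries. Transcripts were counted in single GFP-sorted cells of 3 brain tumours in mice, which the labels number 1, 2 and 4. Every tumour carried the same label of genotype, H3f3aK27M PdgfraD842V Trp53R270H, in mice whose strain label gives a B6.129(Cg) background with the suffix /J and, heterozygous, the allele Gt(ROSA)26Sortm4(ACTB-tdTomato,-EGFP)Luo, a double-fluorescence reporter at Rosa26. The tumours followed electroporation of newborn brains (postnatal day 1 to 2) with MADR constructs and were collected at day 150 (tumour 1), day 106 (tumour 2) and day 149 (tumour 4). No brain without the constructs and no other genotype is analysed here, so no level below is relative to normal tissue. With 1 library per tumour there is also no test between tumours.

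In the integrated stress response, kinases that sense unfolded protein, lack of amino acids, lack of haem or viral RNA phosphorylate the initiation factor eIF2α. General translation falls, while mRNAs with short upstream reading frames, among them those of ATF4, ATF5 and CHOP (Ddit3), are translated more. ATF4 is a basic leucine zipper factor that, with C/EBP partners, switches on genes for amino acid synthesis, uptake and tRNA charging. Much of its control lies in translation, which RNA counts do not read.

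The tables held 3386, 1632 and 4624 barcodes with 47120617, 15231673 and 53551127 unique molecular identifiers (UMIs, each standing for 1 captured transcript) in tumours 1, 2 and 4. After removal of 3 barcodes with under 500 genes (all in tumour 2) and of 25, 81 and 247 with over 20% mitochondrial UMIs, 3361, 1548 and 4377 cells remained. Pairs of libraries shared 6 to 20 barcodes. Clusters were named from markers, and the 10 genes were kept out of the clustering. Non-cycling progenitor-like cells numbered 593, 153 and 958 in tumours 1, 2 and 4, and cycling progenitor-like cells 695, 59 and 952. Oligodendrocyte-like cells numbered 437 in tumour 2 and 71 in tumour 4, with no such cluster in tumour 1, and myeloid-like cells 168, 397 and 82. Clusters whose leading genes went against their markers stayed unnamed and held 1401, 202 and 1759 cells. In tumour 2, 1 cluster of 58 cells supplied nearly all cycling progenitor-like cells. That cluster counted as mixed, its progenitor score lying within 1 of another neural class. Without mixed clusters, 1 cycling progenitor-like cell remained in tumour 2. Progenitor markers in tumour 2 summed to 2263 CPM in cycling and 4932 in non-cycling progenitor-like cells. Oligodendrocyte markers in tumour 2 summed to 9494 CPM (the usual scaling of UMIs to the total of the class) in non-cycling and 8228 in cycling progenitor-like cells, against 3814 in myeloid-like and 70574 in oligodendrocyte-like cells, and their part in the levels below was not tested. The sort was for GFP, yet myeloid-like cells were present in every tumour, and in tumours 1 and 4 their progenitor markers summed to 1575 and 1741 CPM against 138 in tumour 2.

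Promoter sequence was read for all 10 genes from RefSeq (GRCm38.p6), as the 250 bases before the annotated start. The C/EBP-ATF response element was searched on both strands as TGATGNAAN (N, any base). It was present in 3 of the 10 genes, Asns, Chac1 and Slc7a11, and in 3.89% of 27025 genes with such a sequence. The stricter TGATGCAA was present in Chac1 and Slc7a11 and in 0.918% of all genes. The matches are shown because these 3 genes behave differently from each other below. Motif letters are in capitals, and each sequence runs 5′ to 3′ on the gene's own strand.
Slc7a11, chr3:50443643-50443689, minus strand: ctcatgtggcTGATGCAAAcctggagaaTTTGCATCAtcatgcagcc
Chac1, chr2:119351008-119351096, plus strand: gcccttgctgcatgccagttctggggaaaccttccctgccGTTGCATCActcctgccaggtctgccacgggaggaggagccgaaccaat
Asns, chr6:7693214-7693242, minus strand: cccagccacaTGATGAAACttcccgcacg
Slc7a11 held 2 copies in opposite orientation, starting 66 and 48 bases before the annotated start, Chac1 held 1 in reverse orientation at 194 bases and Asns held 1 at 23 bases. A match describes these letters and does not show that a factor binds there.

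The 3 transcription factors differed in which tumour and class held most. Levels are given in CPM, and a 3′ kit counts each transcript once, so no length scaling applies. Atf4, the central factor of the response, stood at 176, 244 and 195 CPM in the non-cycling progenitor-like cells of tumours 1, 2 and 4. Cycling cells had 258, 334 and 205 CPM, oligodendrocyte-like cells 227 (tumour 2) and 141 (tumour 4), and myeloid-like cells 157, 151 and 149. Without a cluster of 18 cells described below, the oligodendrocyte-like value in tumour 2 was 139 CPM. On this scale the myeloid-like values lay below both progenitor-like classes in every tumour. With the scaling of the tests below, Atf4 in myeloid-like cells was fitted at a log2 fold change of 0.09 against non-cycling cells and was not called. Cycling cells were above non-cycling cells in 3 of 3 tumours (log2 ratios 0.55, 0.45 and 0.07), while the ranges of these classes over tumours overlapped. Atf5, a related factor whose translation rises with eIF2α phosphorylation, stood at 174, 27.5 and 80.6 CPM in non-cycling and 224, 66.6 and 92.8 in cycling progenitor-like cells. Tumour 1 was highest and tumour 2 lowest for Atf5 in each of the 3 classes that all tumours held.

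Ddit3 encodes CHOP, the C/EBP-family factor linked to cell death under lasting stress. In non-cycling progenitor-like cells it was lowest in tumour 1 (92.2 CPM), intermediate in tumour 2 (146) and highest in tumour 4 (239). In cycling cells it stood at 121, 236 and 175 CPM, so tumour 4 was lower in cycling than in non-cycling cells while tumours 1 and 2 were higher. Oligodendrocyte-like cells had 330.5 CPM in tumour 2 and 246 in tumour 4. Without the same 18 cells, the value in tumour 2 was 193 CPM. Myeloid-like cells had 103, 122 and 125 CPM.

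**Figure D1:**
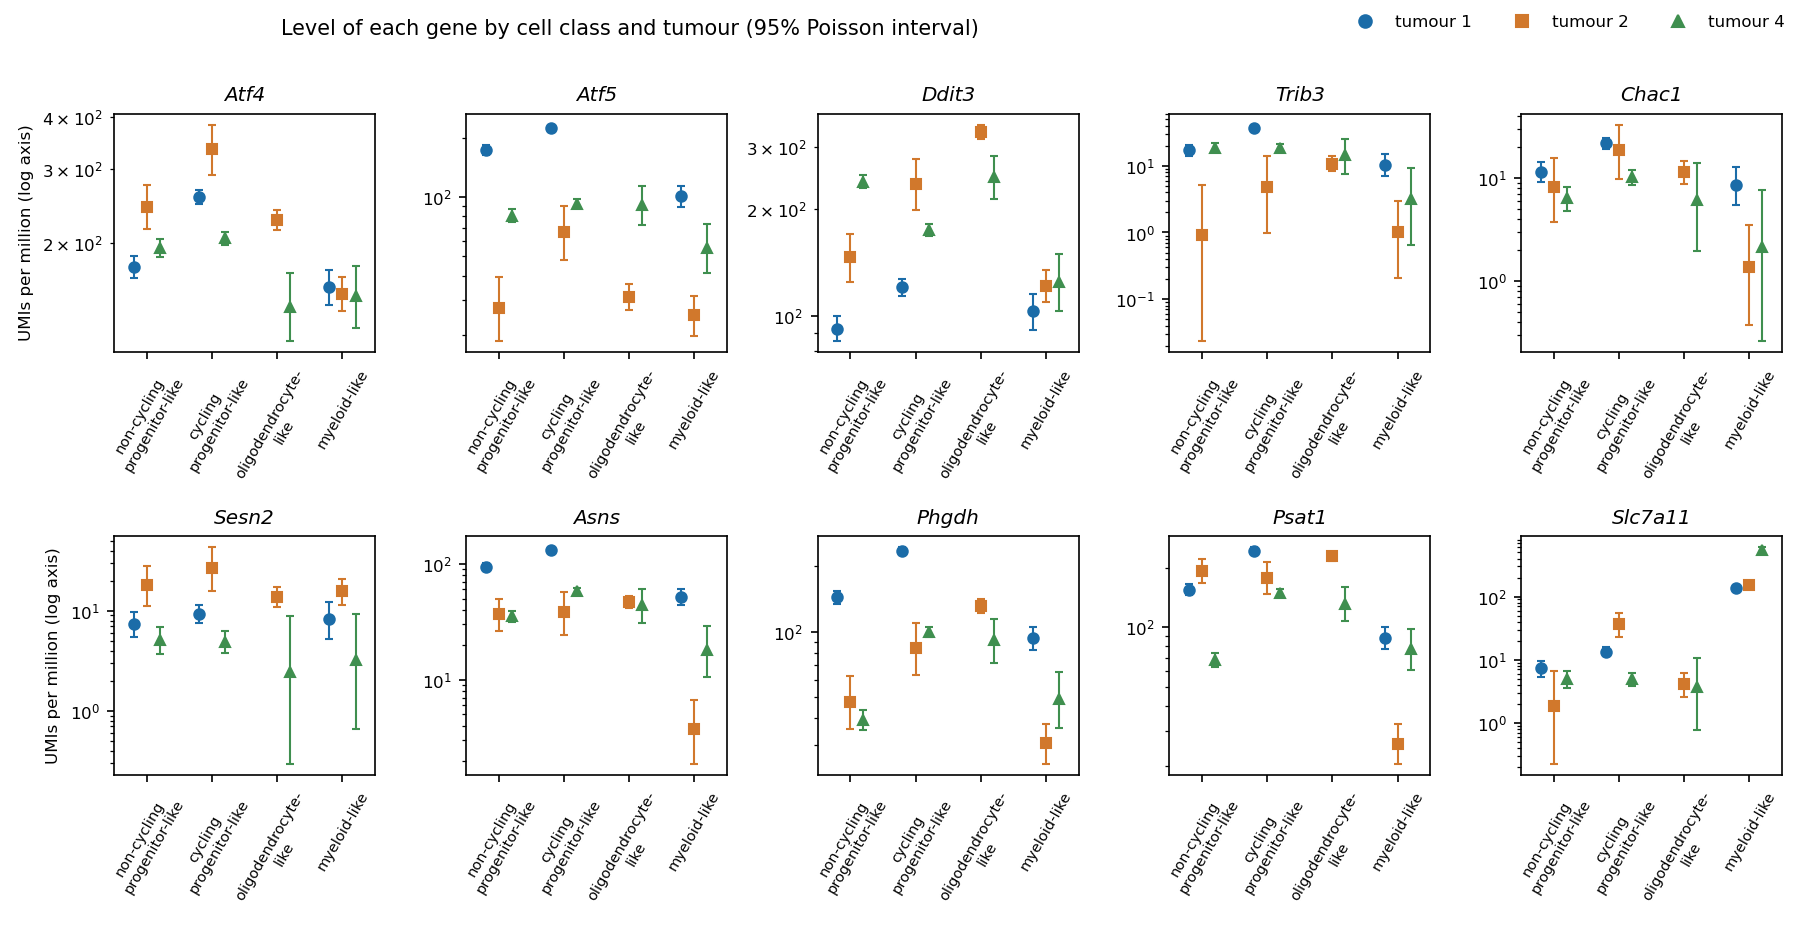
Level of each of the 10 genes in CPM (log axis, each panel on its own scale) in 4 cell classes, with 1 point per tumour and an exact 95% Poisson interval that covers counting error only. Slc7a11 in myeloid-like cells lies at 138 to 553, above every other class, while for Asns, Atf5 and Phgdh tumour 1 is the highest in the classes it holds.

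Trib3, Chac1 and Sesn2 were scarce and varied by tumour. The first, a pseudokinase that feeds back on ATF4 and CHOP, stood at 17.3, 0.92 and 18.7 CPM in non-cycling progenitor-like cells. The value of tumour 2 is 1 UMI (95% Poisson interval 0.0232 to 5.1 CPM). Cycling cells had 37.5, 4.76 and 18.6 CPM. Chac1, an enzyme that degrades glutathione, stood at 11.6, 8.24 and 6.39 CPM in non-cycling and 21.9, 19.0 and 10.2 in cycling cells. It was higher in cycling cells in every tumour, and myeloid-like cells had 8.58, 1.36 and 2.13 CPM. Sesn2, which represses mTORC1 when leucine is short and is also a p53 target, was highest in tumour 2, at 7.42, 18.3 and 5.14 CPM in non-cycling and 9.36, 26.9 and 4.89 in cycling cells.

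The genes of amino acid synthesis differed between tumours and classes, and in tumour 2 all 3 were highest of the 4 classes in oligodendrocyte-like cells (Asns 46.6, Phgdh 131 and Psat1 227 CPM). Asns, asparagine synthetase, stood at 93.5, 36.6 and 35.3 CPM in non-cycling and 131, 38.0 and 58.0 in cycling progenitor-like cells. Across the 11 neural clusters of tumour 1 with at least 20 cells, Asns ran from 70.7 to 163 CPM, against 15.3 to 66.3 over 10 clusters of tumour 2 and 24.3 to 94.7 over 13 of tumour 4. Its lowest cluster in tumour 1 thus lay above every such cluster in tumour 2 and overlapped the upper ones in tumour 4. Phgdh, the first enzyme of serine synthesis, stood at 144, 47.6 and 39.3 CPM in non-cycling and 235, 84.0 and 99.6 in cycling cells. Psat1, the next enzyme, stood at 154, 193 and 68.5 CPM in non-cycling and 244, 178 and 149 in cycling cells, so its order of tumours differed from that of Phgdh. In the oligodendrocyte-like cells of tumour 2 the pair parted by cluster. The cluster led by Pdcd4 and Rtn1 (142 cells), whose progenitor and oligodendrocyte markers were close enough for it to count as mixed, had 360 CPM of Psat1 and 60.9 of Phgdh, while the 2 clusters led by Serpinb1a and Gstp1 (153 cells) and by Tmem141 and Rras2 (66 cells) had 204 and 216 CPM of Psat1 and 167 and 182 of Phgdh.

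Slc7a11, the cystine-importing subunit of the cystine-glutamate exchanger, was highest in myeloid-like cells. Myeloid-like cells had 138, 152 and 553 CPM, with a mean of 281 ± 236 (SD, n = 3), and non-cycling progenitor-like cells 7.26, 1.83 and 4.91 CPM, with a mean of 4.67 ± 2.72. The lowest myeloid-like value was far above the highest of any other class, which was 36.5 CPM (23 UMIs) in the 59 cycling progenitor-like cells of tumour 2. At 4000 UMIs per cell, 27.4%, 25.0% and 58.5% of myeloid-like cells had a UMI of Slc7a11, and 2.36%, 0.758% and 1.04% of non-cycling progenitor-like cells. The unthinned shares were 49.4%, 36.9% and 64.6% at median depths of 13160, 7691 and 9455 UMIs, and 7.08%, 1.52% and 2.71% at 10164, 6569 and 7425 UMIs. Within tumour 2, 4 myeloid-like clusters of 34 to 133 cells differed. Slc7a11 stood at 223 CPM (95% interval 196 to 253) in the cluster led by Apoc1 and Lpl and at 206 (176 to 240) in the one led by Il1b and Ccl3. It stood at 38.0 (25.3 to 55.0) in the cluster led by the microglial genes Tmem119 and P2ry12 and at 47.2 (23.5 to 84.4) in the one led by H2-Aa.

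The comparisons below tested the genes over tumours, on counts summed per tumour and class, with edgeR's quasi-likelihood test, the tumour as a block and Benjamini-Hochberg adjustment over all genes tested. All 10 genes passed the filter on low counts in each comparison, and the threshold was an adjusted p of 0.05. The 3 comparisons share the non-cycling progenitor-like sums as reference, so their values stand side by side and are not independent. With 2 or 3 tumours, the fits have 5 residual degrees of freedom, which limits what they can call.

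**Figure D2:**
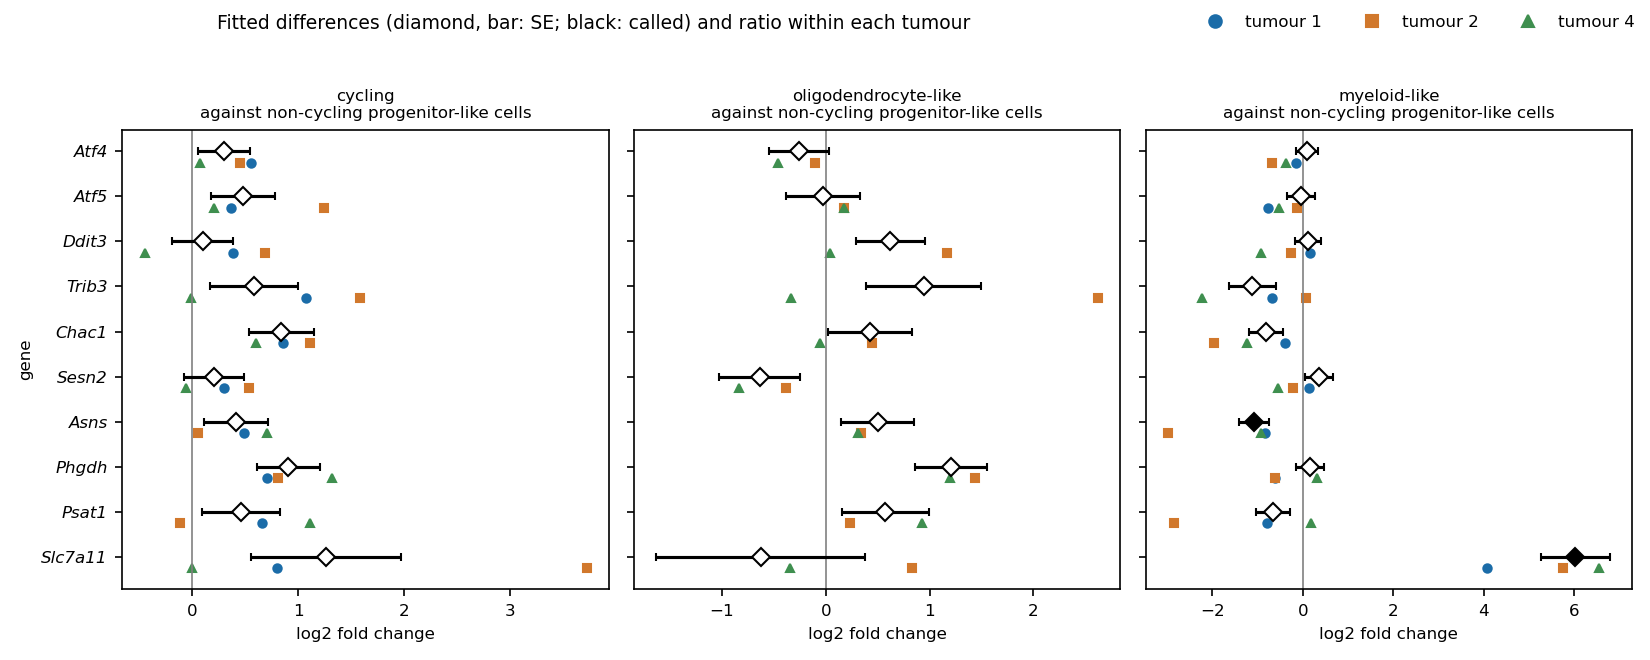
Log2 fold change of each gene against non-cycling progenitor-like cells. Diamonds with bars are the edgeR fit with its standard error (black where the adjusted p is under 0.05), and small points are the log2 ratio of (CPM + 1) within each tumour. Slc7a11 in myeloid-like cells stands at 6.03, while the fitted values of all 10 genes in cycling cells lie between 0.10 and 1.27 with none called.

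In cycling progenitor-like cells none of the 10 genes was called, and all 10 fitted values were above 0. Over all genes, 3.18% of 12833 were called (3.13% higher, 0.0468% lower). The median log2 fold change of the 10 genes was 0.47, and that of all genes tested was -0.04. Of the 10, 2 had an unadjusted p under 0.05. Phgdh differed by 0.91 ± 0.30 (SE) on the log2 scale (edgeR adjusted p = 0.191) and Chac1 by 0.84 ± 0.31 (edgeR adjusted p = 0.276), both higher in 3 of 3 tumours. In tumour 2 nearly all the cycling cells came from the mixed cluster described above. DESeq2 also called 0 of the 10, with 3 at an unadjusted p under 0.05. The result rests on tumour 2: without it, Phgdh (1.00, adjusted p = 0.0224), Psat1 (0.87, adjusted p = 0.0486) and Chac1 (0.81, adjusted p = 0.0405) rose in cycling cells by edgeR in tumours 1 and 4. With all tumours 408 genes were called, and this number also moved when 1 tumour was left out, as given in the closing section. Neither the 3 calls nor the counts with an unadjusted p under 0.05 are set against the share of all genes in the same run. Whether these calls are particular to the 10 genes was not tested. Ddit3 differed by 0.10 ± 0.29 and stood at -0.02 without tumour 1 and -0.05 without tumour 2.

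Few genes of the wider pathway were called in cycling cells. Of 13 other genes of serine, one-carbon and proline synthesis, 2 rose in cycling cells, Shmt1 (1.84 ± 0.34, edgeR adjusted p = 0.00613) and Mthfd2 (1.26 ± 0.25, edgeR adjusted p = 0.011), which carry the one-carbon unit of serine in the cytosol and the mitochondrion. None of 20 aminoacyl-tRNA synthetases, 9 amino acid transporters, 12 genes of the eIF2 axis (eIF2α, its kinases and phosphatase subunits, and eIF2B), 14 further ATF4 partners and targets or 18 genes of endoplasmic reticulum stress (chaperones, Atf6, Xbp1 and degradation genes) was called. Of the 46 cycling genes, which defined the comparison, 45 were called.

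In oligodendrocyte-like cells, set against non-cycling progenitor-like cells over tumours 2 and 4, none of the 10 genes was called by edgeR, against 6.05% of 12879 genes (4.78% higher, 1.27% lower). Only Phgdh had an unadjusted p under 0.05. It was 131 and 91.3 CPM in oligodendrocyte-like cells against 47.6 and 39.3 in the reference, a log2 fold change of 1.21 ± 0.35 (edgeR adjusted p = 0.0636), higher in 2 of 2 tumours. Its call depends on the setting. DESeq2 called Phgdh (adjusted p = 0.0233), as did edgeR on these 2 classes alone (0.00486) and with no filter on low counts (0.0218). So did edgeR without cells over 10% mitochondrial UMIs (0.0234) and without the 2 clusters with Txnip and Gdf15 among their leading genes (0.0466). The remaining alternatives did not call Phgdh and gave 0.0515 to 0.849. Psat1 differed by 0.57 ± 0.42 and Asns by 0.50 ± 0.35, both higher in 2 of 2 tumours and not called. The median of the 10 genes was 0.46, and of all genes tested -0.03. Of 13 other serine, one-carbon and proline genes 1 rose, Mthfd1l (mitochondrial one-carbon enzyme, 1.29 ± 0.34, edgeR adjusted p = 0.0429). Of 14 further ATF4 partners and targets 1 rose, Vldlr (a lipoprotein receptor, 1.61 ± 0.39, edgeR adjusted p = 0.0301). Of 9 NRF2 targets 1 rose, Gclm (glutathione synthesis, 1.27 ± 0.30, edgeR adjusted p = 0.0255). None of 20 aminoacyl-tRNA synthetases, 9 amino acid transporters or 12 genes of the eIF2 axis was called. The 18 genes of endoplasmic reticulum stress and 12 p53 targets held no call either, and 1 of 18 immediate-early and heat-shock genes fell. Whether these lists differ from all genes was not tested.

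In myeloid-like cells 2 of the 10 genes were called, 1 in each direction, against 18.2% of 12879 genes (13.5% higher, 4.7% lower). Slc7a11 rose by 6.03 ± 0.76 on the log2 scale (edgeR adjusted p = 0.000104), higher in 3 of 3 tumours, and stayed called in every alternative run, with values from 5.18 (without tumour 4) to 6.96 (without tumour 1). Asns fell by 1.07 ± 0.33 on the log2 scale (edgeR adjusted p = 0.0416), from 93.5, 36.6 and 35.3 to 51.8, 3.74 and 18.1 CPM, lower in 3 of 3 tumours. Asns lost its call without any single tumour (adjusted p = 0.0955 without tumour 1, 0.0664 without tumour 2, 0.122 without tumour 4) and without the tumour block (0.549). It also lost it on the 2 classes alone (0.114), without the highest Scrublet scores (0.0628), without mixed clusters (0.0717) and without the Txnip clusters (0.0668). It kept its call in the other alternatives, among them DESeq2 (0.0174). In tumours 1 and 4 the myeloid-like cells also held progenitor transcripts, as given above, and their part in the Asns level was not tested. In tumour 2, where progenitor markers summed to 138 CPM, Asns was at 11 UMIs in 397 myeloid-like cells.

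The direction of the other genes in this comparison depends on scaling. The default scaling (TMM) moved the median of all genes by 0.48 on the log2 scale against scaling by library size, and the calls changed from 1741 higher and 605 lower to 1084 higher and 943 lower. Atf4 was fitted at 0.09 with TMM and -0.41 by library size, and Ddit3, Phgdh and Sesn2 changed sign likewise. Trib3 (-1.11 ± 0.53) and Chac1 (-0.82 ± 0.38) were not called with adjusted p of 0.164 and 0.160 by edgeR.

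With TMM scaling, several partners and targets of ATF4 were higher in myeloid-like cells, where 13.5% of all 12879 genes tested were called higher. Of 14 further ATF4 partners and targets, 8 rose, among them Cebpb (3.64 ± 0.39), Gdf15 (2.87 ± 0.60) and Jdp2 (2.32 ± 0.47). Cebpb encodes a myeloid factor that pairs with ATF4, Gdf15 a secreted stress cytokine and Jdp2 a basic leucine zipper partner. Of 9 amino acid transporters 1 rose, Slc3a2 (1.33 ± 0.32, edgeR adjusted p = 0.0132), the heavy chain that joins the Slc7a11 protein in the exchanger. Of the 12 genes of the eIF2 axis 1 rose, Ppp1r15a (3.42 ± 0.29, edgeR adjusted p = 4.23e-06), the stress-induced subunit that reverses eIF2α phosphorylation. Of the 18 genes of endoplasmic reticulum stress 4 rose, among them Edem1 (2.99 ± 0.26), which acts in glycoprotein degradation, and the stress sensor Atf6 (1.08 ± 0.30). Of 9 NRF2 targets 4 rose, Hmox1 (3.04 ± 0.35) and Srxn1 (1.82 ± 0.36) among them, and Slc3a2 is counted in this list as well as among the transporters. None of the 20 aminoacyl-tRNA synthetases was called, and 1 of 13 serine, one-carbon and proline genes rose (Got1, 1.41 ± 0.30). Of 12 p53 targets 1 rose. The counts for the transporters, the eIF2 axis, the p53 targets and the serine, one-carbon and proline genes lie below the share of all genes. No gene of these lists was called lower. All these counts are with TMM, and the lists were not counted under scaling by library size. Immediate-early and heat-shock genes, which tissue dissociation also raises, rose in the same cells for 9 of 18 (Hspa1b, 2.88 ± 0.46, Nr4a1, 2.17 ± 0.35). Their part in the stress genes was not tested. Of the 46 cycling genes, for few UMIs of which the reference cells were chosen, 24 rose in myeloid-like and 3 in oligodendrocyte-like cells.

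Among neural clusters, the highest levels of several of the 10 genes sat in 2 small groups. A cluster of 43 cells of tumour 4 was led by Txnip, Gm26737 and Ptcra, with Arrdc3 and Gdf15 among its further leading genes. The cluster took the progenitor-like name but was mixed, with marker scores of 3.28 for progenitor, 2.55 for neuronal and 2.31 for oligodendrocyte. It was the highest of the 13 clusters of that tumour for 8 of the 10 genes. It had 430 CPM of Atf4 (95% interval 369 to 497), 356 of Atf5 (301 to 418), 816 of Ddit3 (732 to 908), 181 of Trib3 (143 to 227) and 40.6 of Chac1 (23.6 to 65.0). The medians over the clusters of tumour 4 were 188, 91.3, 197, 14.6 and 6.2 CPM for the same genes. Atf4 was detected in 39 of its 43 cells and Trib3 in 15, with up to 29 UMIs of Trib3 in 1 cell. Asns (78.8 CPM) and Psat1 (97.9) were not the highest there. The median mitochondrial share of the cluster was 3.27%. Without this cluster, Trib3 in the non-cycling progenitor-like cells of tumour 4 fell from 18.7 to 11.1 CPM, although only 11 of 958 cells were left out.

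The second group was a cluster of 18 cells of tumour 2 that took the oligodendrocyte-like name. It was led by Gm7120, Gm26870, Emilin1 and Mrpl9, with Txnip, Ddit4, Mdm2 and Gdf15 among its further leading genes. Its marker scores were 4.20 for oligodendrocyte, 1.57 for progenitor and 0.50 for myeloid, although 11 myeloid markers reached 20 CPM. Its median depth was 15636.5 UMIs per cell, against 7783 over all cells of tumour 2. It had 1705 CPM of Atf4 (1562 to 1858), 2633 of Ddit3 (2455 to 2821) and 107 of Sesn2 (73.9 to 151), and every one of its cells held both Atf4 and Ddit3, with medians of 27.5 and 30.5 UMIs. The enzyme genes did not share this: Asns stood at 13.0 CPM (4 UMIs), Psat1 at 42.3 and Phgdh at 39.1, Trib3 was at 1 UMI and Chac1 at 0 UMIs, which, at the 3 counts a 0 allows, is at most 9.76 CPM. The 2 clusters thus shared high Atf4, Ddit3 and Sesn2 and differed in Atf5, Trib3 and Chac1. These clusters were singled out after the levels by cluster had been seen, as those with Txnip and Gdf15 among their 10 leading genes. Gdf15 is itself in the list of further ATF4 partners and targets. Of their cells, 13 of 18 and 23 of 43 were cycling.

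**Figure D3:**
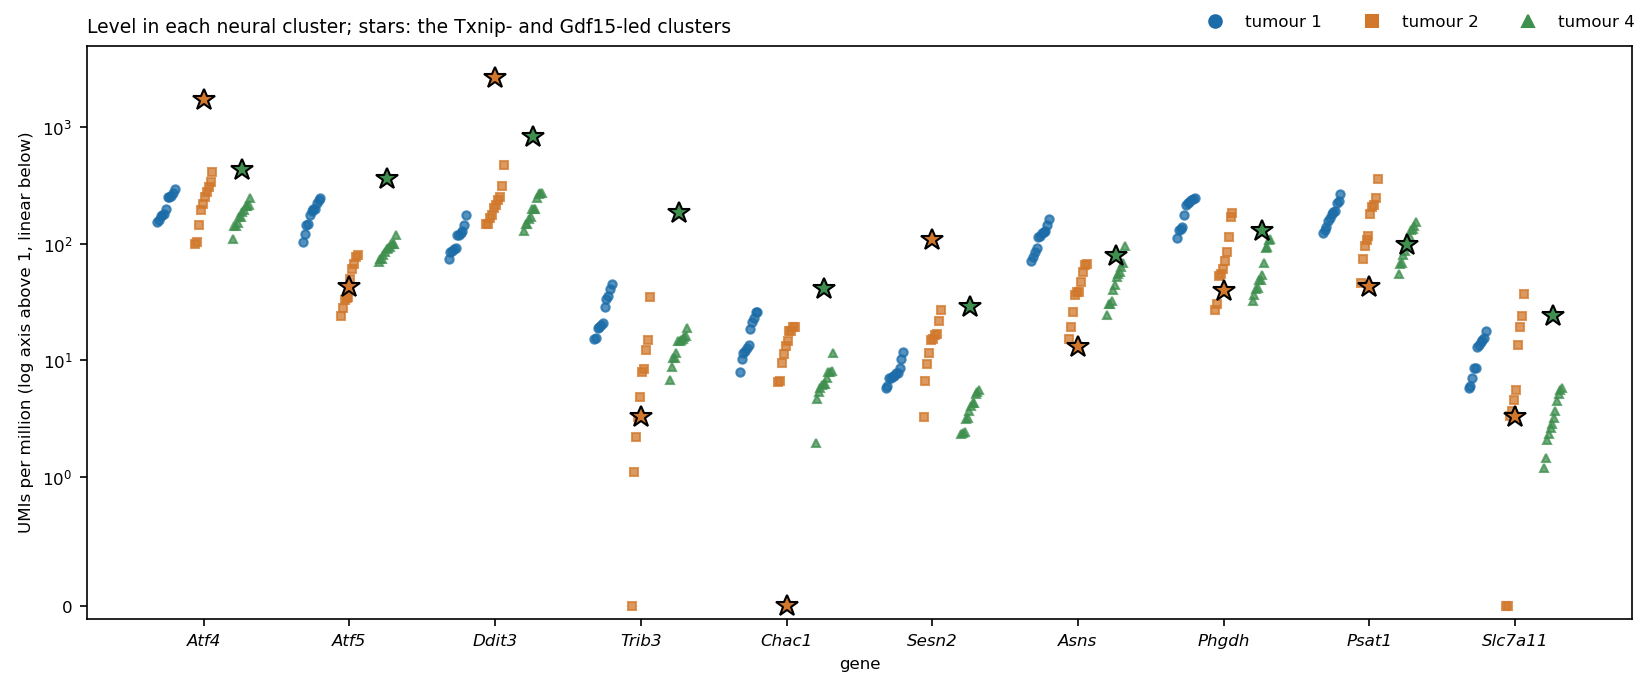
Level of each gene in every neural cluster of at least 20 cells, 1 point per cluster and 3 columns per gene for tumours 1, 2 and 4 (CPM, log axis above 1 and linear below). Stars mark the cluster of 43 cells in tumour 4 and that of 18 cells in tumour 2; for Atf4 they stand at 430 and 1705, above all other clusters of their tumours.

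Outside these, the tumours had other high points. In tumour 1 the highest Atf4 (293 CPM), Asns (163), Sesn2 (11.8) and Slc7a11 (17.7) were all in an unnamed cluster of 208 cells led by Nefm, Nefl and Scg2. In tumour 2 the highest Ddit3 among clusters of at least 20 cells (472 CPM) and Trib3 (34.4) were in an unnamed cluster of 139 cells led by Nov, Csn2 and Csn3, whose median mitochondrial share was 10.9%. Its astrocyte-like cluster of 193 cells had the highest Atf4 of these (408 CPM), with a median mitochondrial share of 10.2%. Whether the mitochondrial share has a part in these levels was not tested.

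Detection of several genes in 1 cell was compared at 4000 UMIs per cell, for which 21 non-cycling, 7 cycling, 50 oligodendrocyte-like and 53 myeloid-like cells, all of tumour 2, were too shallow and left out. Cells with a UMI of at least 3 of the 9 genes other than Atf4 made up 34.4% and 15.9% of non-cycling progenitor-like cells in tumours 1 and 2 and were 115 of 958 in tumour 4. They made up 49.4%, 19.2% and 23.6% of cycling cells, 18.3% (tumour 2) and 21.1% (tumour 4) of oligodendrocyte-like cells, and 22.0%, 3.49% and 14.6% of myeloid-like cells. The share was higher in cycling than in non-cycling cells in 3 of 3 tumours, with exact 95% binomial intervals apart in tumours 1 (30.6% to 38.4% against 45.6% to 53.1%) and 4 (10.0% to 14.2% against 21.0% to 26.5%) and overlapping in tumour 2. These intervals cover counting error only, and no test over 3 tumours was made of this share.

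In progenitor-like cells, pairs of the 10 genes met in the same cell slightly more often than their separate shares give. The ratio of cells with both genes to cells expected was computed for pairs with at least 5 expected cells. Its median was 1.13 over 76 values in non-cycling progenitor-like cells and 1.10 over 82 in cycling cells, 1.05 over 28 in oligodendrocyte-like and 0.97 over 44 in myeloid-like cells. Of the values, 62 of 76, 70 of 82, 16 of 28 and 17 of 44 were above 1. In non-cycling cells, each gene of the group was also paired with the 233 to 11570 other genes that passed the same minimum of expected cells (Trib3 and Slc7a11 had none in tumour 2). These pairs gave medians of 0.978 to 1.03 and 90th percentiles of 1.11 to 1.43. The median of 1.13 thus lay above the middle of such pairs and below their 90th percentile except for Chac1 in tumour 2. Most values had intervals that include 1, and only 4 in non-cycling and 6 in cycling cells did not, all above 1.

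**Figure D4:**
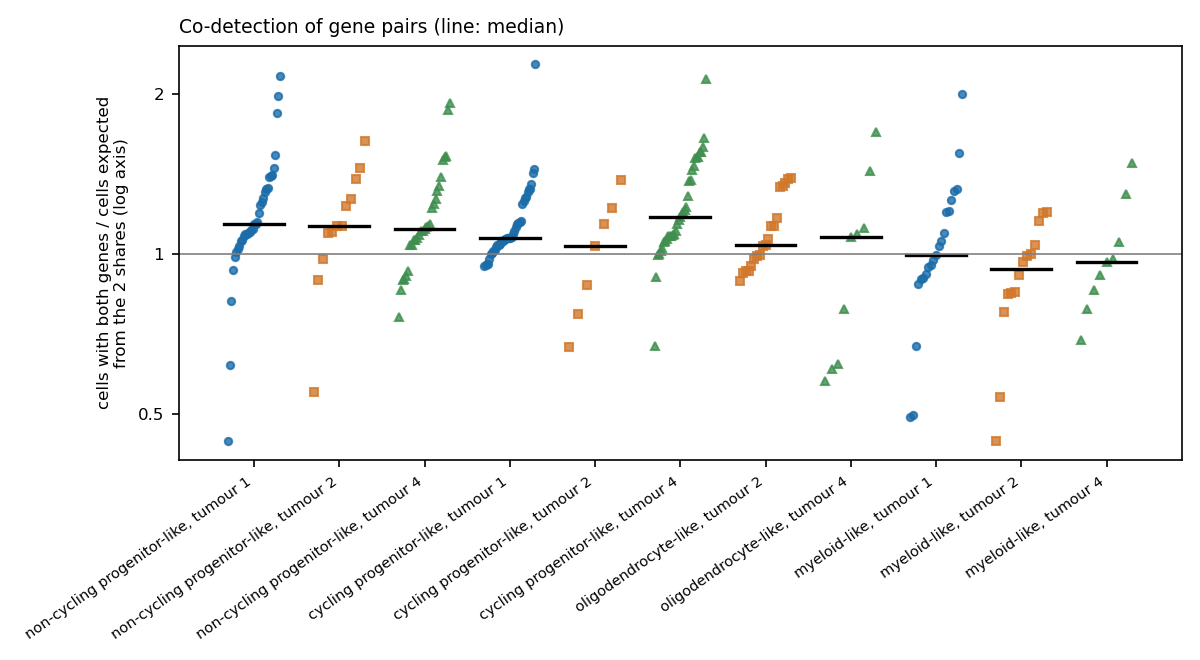
Ratio of cells with both genes to cells expected from the 2 separate shares (log axis), 1 point per pair with at least 5 expected cells, by class and tumour at 4000 UMIs per cell; black lines are medians. The medians lie above 1 in the progenitor-like and oligodendrocyte-like groups and between 0.938 and 0.996 in the myeloid-like groups.

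Trib3 was in 6 of the 10 values whose interval lay above 1 in progenitor-like cells. These were 4 of 76 values in non-cycling and 6 of 82 in cycling cells, and the intervals are not adjusted for the number of pairs. How often pairs with other genes have such an interval was not counted. In non-cycling cells, Atf5 and Trib3 met in 31 cells against 16.8 expected in tumour 1 (ratio 1.84, interval 1.26 to 2.58) and in 24 against 12.8 in tumour 4 (1.87, 1.20 to 2.77). Without the cluster of 43 cells, the ratio in tumour 4 was 1.57 and its interval included 1 (0.902 to 2.54). In tumour 1, Atf5 also met Sesn2 (2.16, 1.19 to 3.60) and Slc7a11 (1.99, 1.03 to 3.44). In cycling cells, Ddit3 and Trib3 had a ratio of 1.45 in tumour 1 (1.04 to 1.95) and 1.56 in tumour 4 (1.16 to 2.04), and this value was 1.58 without that cluster. Asns and Phgdh, the asparagine and serine enzymes, had a ratio of 1.52 in cycling cells of tumour 4 (1.20 to 1.90). Atf4 itself was in none of these pairs, and in myeloid-like cells only Asns and Phgdh in tumour 1 had an interval above 1 (2.00, 1.01 to 3.48).

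Genes most like the group were ranked by Pearson's r across non-cycling progenitor-like cells, between a gene's log2(UMI + 1) and the number of the 9 genes detected in the cell, averaged over the 3 tumours. Among 8691 genes, Eif4ebp1, the translation repressor 4E-BP1, came first (r = 0.26, 0.45 and 0.17 in tumours 1, 2 and 4), then Nupr1, a stress-induced chromatin protein (0.20, 0.19 and 0.26), and Mthfd2 (0.11, 0.27 and 0.11). The next were Lrrc59, Bbc3, Zfp346, Gars, Pdcd2, Eif5a and Eif1, with mean r from 0.14 to 0.16. Tumour 2 gave the highest r for several of these, as for Lrrc59 (-0.00457, 0.39 and 0.10 for tumours 1, 2 and 4) and Pdcd2 (0.05, 0.30 and 0.07). Without the cluster of 43 cells, r in tumour 4 was 0.10 for Eif4ebp1, 0.17 for Nupr1 and 0.05 for Mthfd2. The values are weak, come from cells that share a library and are given as a description over 593, 132 and 958 cells. The median rank of amino acid transporters (6 of 9 ranked) lay at the 96.6th percentile of all genes, of serine, one-carbon and proline genes at the 92.7th, of further ATF4 partners and targets at the 92.6th and of aminoacyl-tRNA synthetases at the 87.7th. Genes of endoplasmic reticulum stress lay at the 79.7th, p53 targets at the 79.2th, immediate-early and dissociation genes at the 76.8th, cycling genes (12 of 46 ranked) at the 59.6th, genes of the eIF2 axis at the 55.4th and NRF2 targets at the 31.8th. The ranked cells were chosen for few UMIs of the cycling genes, so the percentile of that list cannot show whether the group follows cycling.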

How the data were processed

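Single-cell 3′ libraries of GFP-sorted tumour cells were deposited by the authors as UMI counts per gene and barcode, 1 table per tumour. Per the submitters' processing notes, STAR 2.5.1, Cell Ranger 1.3.0 and mm10 were used, and no source used here gives the rule that kept barcodes as cells. The members and gene lists were chosen with earlier results of these data known. Barcodes under 500 genes or over 20% mitochondrial UMIs were dropped and the rest clustered per tumour (scanpy 1.11.5, Leiden resolution 1). The members and the pathway lists (119 genes) were left out of the clustering, except that the cycling and immediate-early lists were kept in. Clusters were named from marker lists. Progenitor-like cells with at least 5 UMIs of 46 cycling genes after thinning to 2000 UMIs were called cycling, and those with at most 1 non-cycling. Scrublet called 0, 7 and 0 doublets, so none was removed and the highest scores were left out in an alternative. Counts summed per tumour and class (11 sums) were tested with edgeR 4.0.16 (quasi-likelihood, TMM, filterByExpr, tumour as block, 5 residual degrees of freedom), a procedure tested on simulated data, and with DESeq2 1.42.0. The block is the tumour, since all classes of a tumour come from 1 library. Levels carry exact 95% Poisson intervals and shares exact binomial ones, which cover counting error only. Named genes were the 10 members, the 3 genes with the largest absolute log2 fold change among the called genes of each pathway list with 1 sign in every tumour, and the 10 genes most like the members. Promoters came from RefSeq, where all 10 members matched.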

Additional observations from a re-analysis of the deposited data

How the results depend on the processing

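Slc7a11 in myeloid-like cells kept its direction and call under every alternative run. Over the single-gene tests, 433 alternative values kept direction and side of the threshold, 40 changed sign, 8 lost and 9 gained a call. Trib3 in myeloid-like cells was called with unnamed neural clusters added (-1.62). The cause of each change was not tested. The tests rest on class sums from 2 or 3 tumours, and tumour 2 gave 59 cycling cells.

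With no replicate block, which ignores the pairing of classes within a tumour, genes called went from 408 to 183 (cycling), 779 to 98 (oligodendrocyte-like) and 2346 to 1057 (myeloid-like), with 1 member called in the last. On the 2 classes alone they were 655, 1671 and 1177. Leaving out 1 tumour gave 101 to 957, 161 to 649 and 1222 to 2404, with 0 to 3 members called in cycling cells and 1 in myeloid-like cells. Cycling calls were 221 at resolution 0.5 and 255 by library size. Oligodendrocyte-like calls were 1361 with no filter on low counts, 1311 with stricter cells, 124 at resolution 2, 363 with unnamed neural clusters added and 401 by library size. Phgdh was the 1 member called there in the 5 settings listed with its value, and in myeloid-like cells 1 member stayed called on the 2 classes alone, without the highest Scrublet scores, without mixed clusters or without the Txnip clusters.

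At 2000 UMIs the share of cells with at least 3 of the 9 members was 5.94% (non-cycling), 10.7% (cycling), 4.84% (oligodendrocyte-like) and 2.80% (myeloid-like). Median co-detection in non-cycling cells was 1.15 at 2000 UMIs, 1.10 with stricter cells and 1.12 without the Txnip clusters, in oligodendrocyte-like cells 0.955 and 1.10 and in myeloid-like cells 0.891 and 1.04 for the first 2 settings. The summed level in non-cycling cells was 865 CPM at resolution 0.5 and 867 with unnamed clusters added.

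The signs that changed were all of uncalled values (log2). In cycling cells Ddit3 was -0.020 and -0.051 without tumours 1 and 2 and -0.14 with unnamed clusters, and Asns -0.00159 at resolution 0.5. In oligodendrocyte-like cells, with no replicate block, Trib3 was -0.19, Chac1 -0.00409 and Asns -0.41. Without tumour 2 Trib3 was -0.14, Chac1 -0.065 and Atf5 0.071, without tumour 4 Atf4 was 0.00816, and without tumour 1 Atf5 was 0.15. Atf5 was 0.17 on 2 classes, 0.10 at resolution 2, 0.000298 without the highest Scrublet scores, 0.085 without mixed clusters, 0.026 without cells over 10% mitochondrial UMIs, 0.060 without the Txnip clusters and 0.058 by library size. Trib3 was -0.054 with unnamed clusters, Sesn2 0.11 with stricter cells, and Slc7a11 0.24 on 2 classes and 0.78 at resolution 2. In myeloid-like cells, by library size, Atf4 was -0.41, Ddit3 -0.38, Phgdh -0.32 and Sesn2 -0.22. Without tumour 2 Atf4 was -0.026 and Ddit3 -0.14, and Atf5 was 0.36 and 0.10 without tumours 1 and 4, 0.043 without mixed clusters, 0.050 without cells over 10% mitochondrial UMIs and 0.050 without the Txnip clusters. Ddit3 was -0.18 with unnamed clusters. Phgdh was -0.074 with no replicate block, -0.00461 without tumour 4, -0.044 with stricter cells, -0.11 at resolution 0.5 and -0.10 with unnamed clusters. With 1 tumour left out, the ranges of these genes were -0.05 to 0.42 for Ddit3 in cycling cells. In oligodendrocyte-like cells they were -0.46 to 0.00816 for Atf4, -0.17 to 0.15 for Atf5, -0.14 to 2.71 for Trib3 and -0.065 to 0.79 for Chac1. In myeloid-like cells they were -0.026 to 0.21 for Atf4, -0.44 to 0.36 for Atf5, -0.14 to 0.58 for Ddit3 and -0.00461 to 0.57 for Phgdh.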
